A study of Mus musculus with 4 samples.

Results

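The 10 genes described here run from the surface of the cell to the nucleus along the insulin signal: the receptors Insr and Igf1r, the receptor substrates Irs1 and Irs2, the phosphatidylinositol 3-kinase (PI3K) subunits Pik3r1 and Pik3ca, the protein kinases Akt1 and Akt2, and the transcription factors Foxo1 and Foxo3. They were taken by name as genes of the pathway, with earlier results of these data known, and looked for in a deposited table of genes related to differential peaks of N6-methyladenosine (m6A), a methyl mark on adenosines of RNA. Of the 10 genes, 6 were in that table and 4 were not, and the table held 9225 distinct gene IDs in all.

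The cells were MIN6, a beta-cell line from a mouse insulin-producing tumour, labelled with the strain C57BL/6 and grown in 25 mM glucose. One arm had been transfected with a control vector and the other with a GR expression vector, at 10 µg of plasmid per dish, and RNA was extracted 24 hours later. The labels give the expressed protein only as GR, read here as the glucocorticoid receptor, and they name neither a ligand nor the share of cells that took up the vector. For each arm, fragmented RNA was sequenced once as input and once after pull-down with an m6A antibody, which makes 4 libraries and leaves the comparison of the arms without a replicate check. The files used here hold finished comparisons of the arms. Depth is unknown, and no level of a gene in either arm can be given.

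Insulin and insulin-like growth factors bind receptor tyrosine kinases, which phosphorylate the IRS proteins. Phosphorylated IRS proteins dock PI3K, the lipid made by PI3K brings AKT to the membrane to be activated, and active AKT phosphorylates the FOXO factors and keeps them out of the nucleus. Beta cells both secrete insulin and carry this pathway, and IRS2 is known there for its part in keeping up beta-cell mass.

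The gene table has 1 gene per line, by Ensembl ID, symbol and protein domains, and it gives no position, direction or size of a peak. Lines that repeat a gene are identical, and the meaning of a line (a peak, a transcript or another record) is not stated. Being listed therefore names a gene without saying whether its m6A signal was higher or lower with GR. Nor does absence mean that a gene had no differential peak: of the 22 genes for which the authors' deposited table of autophagy genes gives such peaks, 9 were in the gene table and 13 were not. None of the 10 insulin signalling genes was in the autophagy table. Of 8 beta-cell markers, 6 were listed (Ins1, Pdx1, Nkx6-1, Mafa, Slc2a2 and Slc30a8) and Ins2 and Iapp were not. Listed too were 1 of 4 markers of other islet cells (Gcg) and 1 of 5 markers of exocrine, duct, mesenchymal and blood cells (Cela2a). The share listed over all protein-coding genes was 25.2%. The gene table carries no RNA level, so these counts do not check the identity of the cells.

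Listed were Igf1r, Irs1, Irs2, Pik3r1, Akt2 and Foxo3, and absent were Insr, Pik3ca, Akt1 and Foxo1. The share listed was 60.0%, against 25.2% of the 21900 protein-coding genes of the reference. Each step of the pathway had at least 1 of its genes in the table. The receptor substrates were the only step with both named genes listed, and each of the other 4 steps had 1 gene listed and 1 absent. On 2 or more lines were 3 of the 10 genes (Irs2, Akt2 and Foxo3), against 11.2% of protein-coding genes. Among listed genes only, that was 3 of 6, beside 44.4% of all listed IDs. Since the background covers genes of every kind and level of expression, the members' share is set beside it as a description, with no test.

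At the receptor step, Igf1r, which encodes the receptor for insulin-like growth factor 1, was on 1 line. Insr, the insulin receptor gene, was on none, nor was Insrr, which encodes the related receptor tyrosine kinase. Igf1r (ENSMUSG00000005533) spans bases 67952257 to 68233668 of chromosome 7 and Insr (ENSMUSG00000005534) bases 3150922 to 3279649 of chromosome 8, both on GRCm38.p6, the assembly behind mm10. The insulin receptor family was thus represented by 1 of its 3 genes.

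The adaptor Irs2 stood apart from the other members. Irs2 (ENSMUSG00000038894, chromosome 8, 10984681 to 11008929) was on 6 lines, which is 46.2% of the 13 lines of all members together. Of the 9225 listed IDs, 225 (2.44%) were on as many lines or more, and 5127 (55.6%) were on 1 line. Irs1 (ENSMUSG00000055980, chromosome 1, 82233105 to 82291439), the other widely expressed substrate of the insulin receptor, was on 1 line, and Irs4 was on none. The 2 listed substrates were the only listed genes with the domain entry "Insulin receptor substrate". Their phosphotyrosine-binding domain entry, "IRS-type PTB domain", was shared with 2 further listed genes, the docking protein genes Dok1 and Dok3.

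The number of lines is not a measure of the m6A change at Irs2. Since identical lines carry no position, the 6 lines could not be told apart as peaks, transcripts or repeats of one record.

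**Figure D1:**
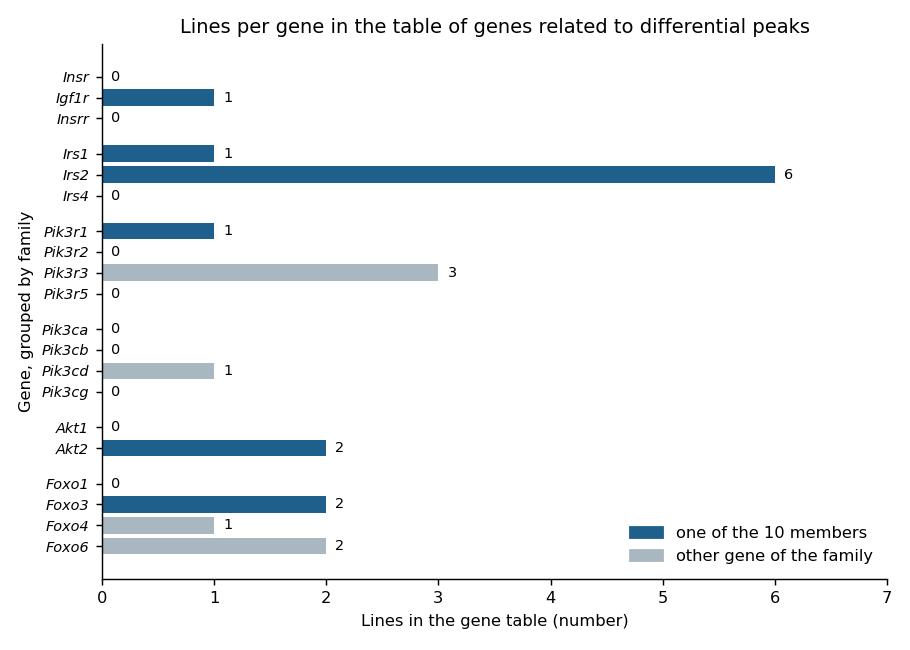
Bars give the number of lines per gene in the gene table (x axis) for the receptors, receptor substrates, PI3K regulatory and catalytic subunits, AKT kinases and FOXO factors (y axis), with the 10 members in dark blue and other genes of each family in grey. Irs2 has 6 lines and no other gene shown has more than 3 (Pik3r3); Insr, Pik3ca, Akt1 and Foxo1 have 0.

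Among PI3K subunits, Pik3r1 (ENSMUSG00000041417, chromosome 13, 101680761 to 101768217), which encodes the regulatory subunits that dock on phosphorylated IRS proteins, was on 1 line. Its paralogue Pik3r3, which encodes the p55 gamma regulatory subunit, was on 3 lines, and Pik3r2 and Pik3r5 were on none. The 2 listed genes were the only ones in the table with the domain entry "PI3K p85/p55 subunit". The catalytic subunit gene Pik3ca (chromosome 3, 32397065 to 32466112) was absent, as were Pik3cb and Pik3cg, and of the 4 class I catalytic genes only Pik3cd was listed, on 1 line. Of the genes looked up, 2 of 4 regulatory and 1 of 4 catalytic genes were listed, counts too small to tell the families apart.

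At the kinase step, Akt2 (ENSMUSG00000004056, chromosome 7, 27591552 to 27640826), the AKT isoform known for its role in glucose handling, was on 2 lines. Akt1 (chromosome 12, 112653821 to 112674884) was absent. The domain entry "Pleckstrin homology domain", which names the fold that binds membrane lipids, was held by 3 members, Irs1, Irs2 and Akt2, among 69 listed genes that had it. The same 3 members held the broader entry "PH-like domain superfamily", among 109 listed genes, and no other entry was held by as many members.

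At the transcription factor step, Foxo3 (ENSMUSG00000048756, chromosome 10, 42181845 to 42276695) was on 2 lines. Foxo1 (chromosome 3, 52268337 to 52350109), the FOXO factor most studied in beta cells, was absent. Of the other FOXO genes, Foxo6 was on 2 lines and Foxo4 on 1, so that 3 of the 4 were listed. These 3 were the only listed genes with the entry "FOXO protein, transactivation domain".

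Genes that overlap a member on the reference could share its reads where strand was not used, which is not stated. Irs2 overlapped 1 gene there (9530052E02Rik), Foxo3 1 (Gm38485) and Igf1r 2 (Gm51488 and Gm51487). All were long non-coding RNA genes with no line under their symbol. Irs1, Pik3r1 and Akt2 overlapped none. Of the absent members, Akt1 overlapped Mir6939 and Gm30150 and Pik3ca overlapped Kcnmb3, and none of these 3 symbols was listed. Overlaps were sought among genes of the reference only, and their lines by symbol. A gene missing from the reference or without a matching symbol could not be found, so a listed overlapping gene may have been missed.

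The share of genes listed varied with the span of the gene on the genome. Protein-coding genes were put into 10 classes of equal number by span, and the share listed was 5.02% in the shortest class, highest at 32.6% in the fifth, and 17.4% in the longest. Insr and Igf1r were both in the longest class, yet only Igf1r was listed. Irs1, Pik3r1, Pik3ca, Foxo1 and Foxo3 were all in the ninth, where 23.8% of genes were listed, and 3 of these 5 were listed. Akt2 was in the eighth class (25.4%), and Irs2 and Akt1, with spans of 24249 and 21064 bases, were both in the sixth (29.1%). Listed and absent genes of the pathway thus lay in the same classes, and no member was in a class with a share above 29.1%.

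**Figure D2:**
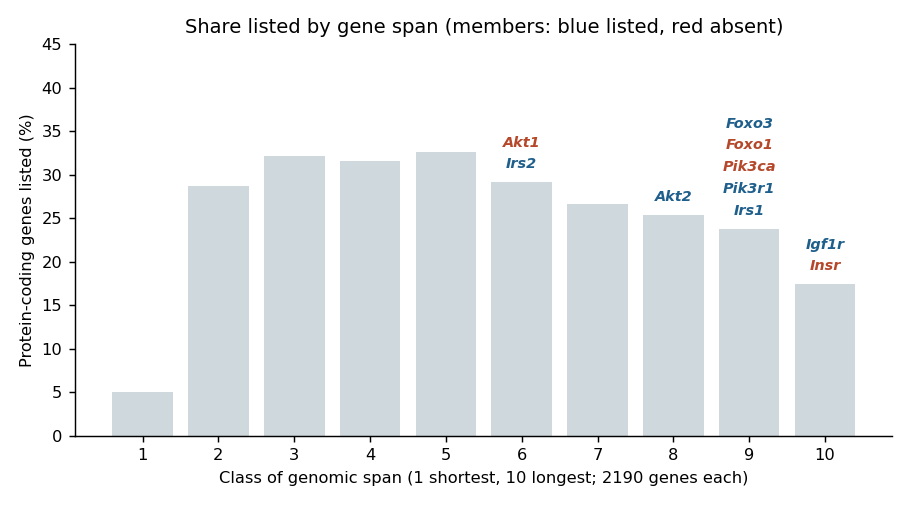
Bars give the share of protein-coding genes in the gene table (y axis, %) for 10 classes of genomic span of 2190 genes each (x axis), and names above a bar place each member in its class, blue where listed and red where absent. Shares fall from 32.6% in the fifth class to 17.4% in the longest, and the classes that hold several members hold both listed and absent ones.

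The wider pathway was described by 82 genes in 9 lists, of which 35 (42.7%) were listed, beside 25.2% of all protein-coding genes. On 2 or more lines were 14 of the 82 (17.1%), beside 11.2%. Among listed genes only, that was 14 of 35, beside 44.4% of all listed IDs, so repeated lines were not more common among them. The lists were chosen with earlier results of these data known, so the shares are a description. Whether any of them is particular to the pathway was not tested.

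Among ligands and other receptors, 2 of 6 genes were listed. Igf2, a growth factor ligand of the IGF1 receptor, was on 2 lines and Ins1, one of the pair of mouse insulin genes, on 1, whereas Igf1, Igf2r and Ins2 were absent. Ins1 and Ins2 are similar in sequence, and how reads that match both were treated is not stated. Among adaptors and receptor brakes, 4 of 12 were listed: Socs3, a feedback inhibitor of cytokine and insulin signalling, on 2 lines, and Grb2, Shc1 and Socs1 on 1 each. Absent from this list were Gab1, Grb10 and Grb14, among others.

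The list of other class I PI3K genes, which also included the PI3K-interacting protein gene Pik3ip1, had 2 of 7 listed (Pik3r3 and Pik3cd, above). Of 5 phosphoinositide phosphatases, which remove the lipid signal, 1 was listed, and Inpp4b, Inpp5d and Inpp5k were among the absent. Among partners of AKT, 4 of 7 were listed. Among these were Phlpp1, a phosphatase that inactivates AKT, on 2 lines, and Rictor and Trib3 on 1 each. Rictor is a subunit of the mTOR complex that phosphorylates AKT, and TRIB3 binds AKT. Pdpk1, the kinase that phosphorylates the activation loop of AKT, was absent, as were Mapkap1 and Phlpp2.

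Downstream of AKT, 6 of 12 substrate genes were listed. Gsk3b, a kinase of glycogen synthase that AKT inhibits, was on 3 lines, and the cell death gene Bad, the cyclin-dependent kinase inhibitor Cdkn1b and the ubiquitin ligase Mdm2 were on 2 each. The substrate genes Acly, Akt1s1 and Pde3b were absent. Of 8 other FOXO genes and regulators of FOXO, 4 were listed: Foxo6 and Skp2 on 2 lines each and Foxo4 and Ywhaz on 1 each. Sgk1, Sirt1 and Usp7 were absent. Of 15 known FOXO target genes, 6 were listed, among them Pdx1, a beta-cell transcription factor gene that FOXO1 represses, and Txnip on 2 lines each and Bcl2l11 and Ccng2 on 1 each, with Bnip3, Cat and Fbxo32 among the absent. In the RAS-MAPK branch that leaves the pathway at the receptor, 6 of 10 were listed, among them Hras on 2 lines and Mapk3 on 1, with Braf, Map2k1 and Map2k2 absent.

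No gene of the 82 was on as many lines as Irs2. The most was 3, with Pik3r3 and Gsk3b among the genes that had it.

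**Figure D3:**
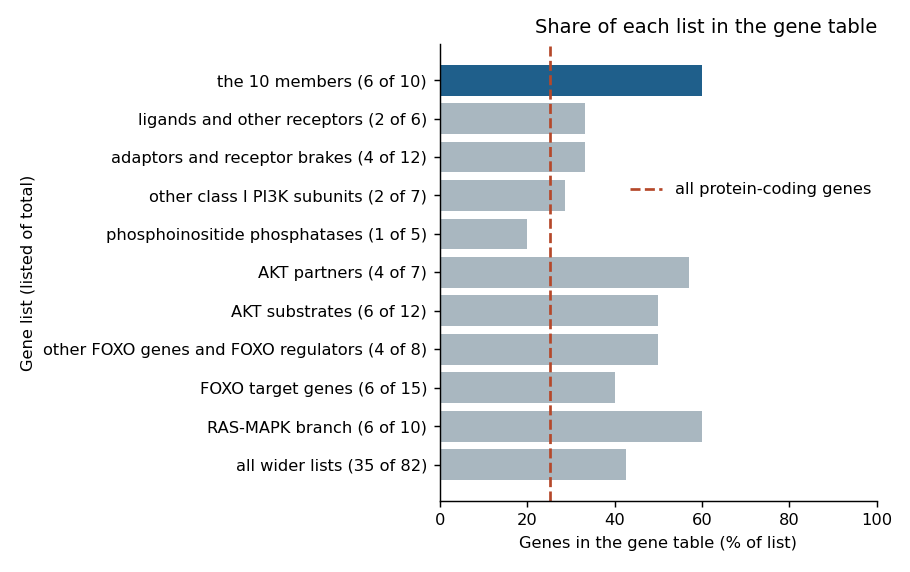
Bars give the share of each list that was in the gene table (x axis, %), with the number listed and the size of the list in the row labels, for the 10 members (dark blue) and the wider lists (grey). The dashed line is the 25.2% of all protein-coding genes; shares run from 20.0% for phosphoinositide phosphatases to 60.0% for the RAS-MAPK branch and for the members.

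In the deposited KEGG pathway table, each listed member was counted under its own ID, and no other ID stood for a member. At least 1 of the 6 was in 92 of the 290 pathways. Pik3r1 was in 79 and Akt2 in 73, with 67 pathways holding both, while Igf1r was in 25, Irs1 in 16, Irs2 in 12 and Foxo3 in 11. Insr, Pik3ca, Akt1 and Foxo1 were in none. Of the 92 pathways, 89 had a corrected p below 0.05 in the authors' deposited table, beside 66.9% of all pathways (194 of 290). That count is not independent of the members, since they are part of the input, and the pathways share most of these genes. The deposited input numbers count IDs, so a gene with several IDs counts more than once. No p-value or rank was recomputed by distinct genes.

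The Insulin signaling pathway held 4 of the members: Irs1, Irs2, Pik3r1 and Akt2. It had 78 input IDs against 142 background genes, with p = 5.09e-13 and a corrected p of 1.13e-11 in the authors' deposited table, which put it at rank 13. The 78 IDs stood for 62 distinct Entrez genes. Of these, 57 were in the input under their own ID, 40.1% of the background genes, beside 54.9% by input IDs. The ribosomal protein gene Rps6 accounted for 13 of the 78 IDs, although it had 2 lines of its own. The remaining 5 genes had no ID of their own in the input, among them Pik3cb, Eif4e, Eif4ebp1 and Ppp1ccb. Of the 57, 21 were on 2 or more lines and 36 on 1 line. Prkag1, a regulatory subunit of AMP-activated kinase, was on 7 lines, followed by Irs2 on 6 and the adaptor gene Crk on 4. Glucose-handling genes of the pathway were listed too, among them Fbp1 on 3 lines and G6pc2, the islet glucose-6-phosphatase, on 1. Prkag1, Crk, Fbp1 and G6pc2 were picked after their lines were seen.

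The PI3K-Akt signaling pathway held 5 members, Igf1r, Irs1, Pik3r1, Akt2 and Foxo3, and not Irs2. It had 144 input IDs against 350, with p = 2.4e-14 and a corrected p of 7.73e-13 in the authors' deposited table. By distinct Entrez genes the count was 120, and by genes present under their own ID it was 106, or 30.3% of the background beside 41.1% by IDs. Genes represented by another ID only numbered 14, Pik3cb and Eif4ebp1 again among them.

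Counted by own IDs, the Insulin signaling pathway was in the upper part of the pathways and the PI3K-Akt signaling pathway near their middle. Over the 193 KEGG pathways with 50 or more background genes, the median share by own IDs was 31.1%. The Insulin signaling pathway, at 40.1%, had 21 of the 193 above it, and the PI3K-Akt signaling pathway, at 30.3%, had 101 above it. No test of this difference was made, since the pathways share genes.

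The absent catalytic subunit Pik3cb shows how an ID can stand for a gene. Pik3cb had no line, but Gm12978, a pseudogene by the reference with 4 lines, was mapped to it and was counted as Pik3cb in 80 pathways. Among the 82 wider genes, 2 others without lines were also counted through another ID. Gadd45a was counted through E230016M11Rik, a long non-coding RNA gene, in 5 pathways. Bnip3 was counted through Gm45507, which was not in the reference, in 2. Reads could be divided between Pik3cb and its pseudogene, and how the authors treated them is not stated.

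All 6 listed members came together in 4 pathways. These were FoxO signaling (63 input IDs against 135, p = 1.14e-08 in the authors' deposited table), AMPK signaling (48 against 129), Longevity regulating pathway (40 against 96) and its multiple-species version (33 against 64). Genes under their own ID made up 39.3%, 32.6%, 37.5% and 43.8% of these backgrounds. With 4 members each came mTOR signaling (39.1% by own IDs), Non-alcoholic fatty liver disease (36.3%), EGFR tyrosine kinase inhibitor resistance (43.9%), Neurotrophin signaling (38.5%), Insulin resistance (40.5%), cGMP-PKG signaling (30.1%) and Regulation of lipolysis in adipocytes (38.6%), besides the Insulin signaling pathway. In EGFR tyrosine kinase inhibitor resistance the share by input IDs was 67.1%, the highest of these pathways.

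**Figure D4:**
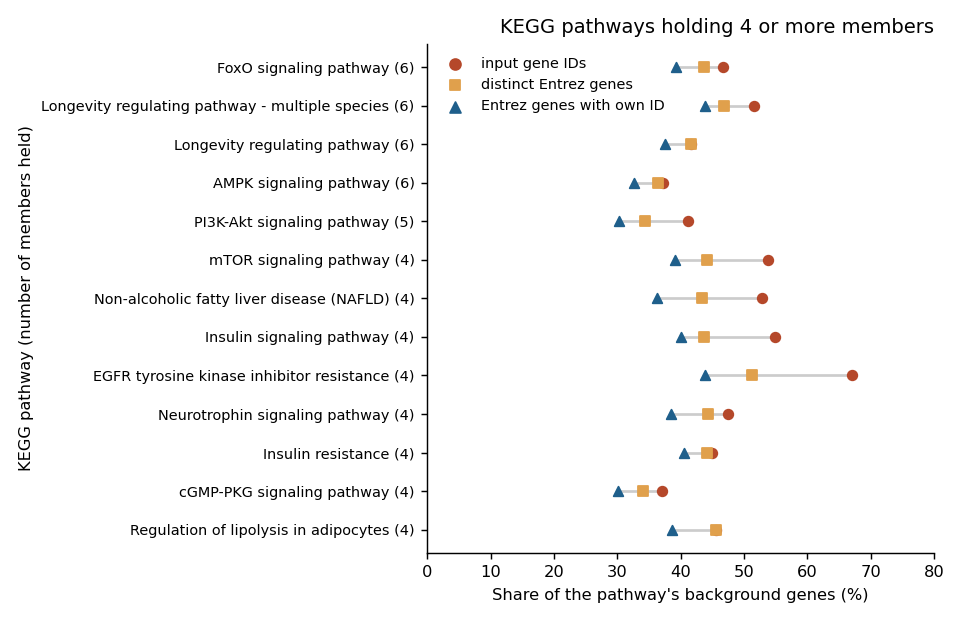
For the 13 KEGG pathways that hold 4 or more members (y axis, number held in brackets), points give the share of background genes (x axis, %) by input gene IDs (red circles), distinct Entrez genes (orange squares) and Entrez genes present under their own ID (blue triangles). The Insulin signaling pathway goes from 54.9% by IDs to 40.1% by own IDs, and the PI3K-Akt signaling pathway from 41.1% to 30.3%.

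The Gene Ontology (GO) table held the same 6 members and none of the 4 absent ones. They were in 1138 of 16568 terms, of which 934 were biological processes, 114 molecular functions and 90 cellular components. More than 1 member was in 530 terms. Akt2 was in 553 terms, Pik3r1 in 542, Foxo3 in 459, Irs2 in 370, Irs1 in 254 and Igf1r in 69. The number of terms of a gene counts its annotations and is no property of its peaks. All deposited p-values of this table are 1, so the terms are described by their share of genes with a peak. As base lines, the gene lists of all terms named 5409 distinct IDs, 26.0% of 20770 background genes, and the table's own total of 10022 genes with a peak would be 48.3%. Why these totals differ is not stated.

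The terms with all 6 members were broad. The narrowest was transmembrane receptor protein tyrosine kinase signaling pathway, with 147 of 530 genes (27.7%), followed by enzyme linked receptor protein signaling pathway (29.3%) and cell surface receptor signaling pathway (25.9%). The others named by the rule were signal transduction (20.4%), signaling (21.3%), cell communication (21.4%), cellular response to stimulus (22.8%), protein binding (29.4%), macromolecule metabolic process (30.8%) and cellular macromolecule metabolic process (32.0%). These shares lay on both sides of 26.0%.

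Of terms named for insulin, PI3K or protein kinase B, 33 held a member. The insulin receptor signaling pathway held Irs1, Irs2, Pik3r1, Akt2 and Foxo3, with 37 of 117 genes (31.6%). The other listed genes of that term with the most lines were Gsk3b, Pik3r3 and Zbtb7b, with 3 each. Cellular response to insulin stimulus had 67 of 210 (31.9%) and response to insulin 84 of 269 (31.2%), with the same 5 members. Insulin receptor binding held Irs1, Irs2 and Pik3r1 and had 10 of 25 genes (40.0%), and phosphatidylinositol 3-kinase binding held Igf1r, Irs1, Irs2 and Pik3r1 with 14 of 40 (35.0%). Insulin secretion, with Irs1 and Irs2, had 79 of 211 (37.4%), and protein kinase B signaling, with Akt2, had 45 of 192 (23.4%).

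Igf1r was absent from the insulin response terms above. It was in insulin-like growth factor binding (4 of 27 genes, 14.8%), insulin receptor substrate binding (5 of 11, 45.5%) and phosphatidylinositol 3-kinase binding. It was not in the insulin-like growth factor receptor signaling pathway (6 of 31, 19.4%), which held Irs1 and Pik3r1.

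Regulation of the response held fewer members. Regulation of cellular response to insulin stimulus (31 of 86, 36.0%) and its positive regulation (15 of 35, 42.9%) held Irs1, Pik3r1 and Akt2. Regulation of insulin receptor signaling pathway (24 of 61, 39.3%), phosphatidylinositol 3-kinase signaling (31 of 112, 27.7%) and insulin-like growth factor receptor binding (7 of 14, 50.0%) held Irs1 and Pik3r1. Glucose import in response to insulin stimulus held Pik3r1 and Akt2, with 6 of 25 genes (24.0%), and its regulation (6 of 23, 26.1%) and positive regulation (6 of 18, 33.3%) held the same members.

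The hormone's release was annotated to both substrates. Regulation of insulin secretion (66 of 176, 37.5%) held Irs1 and Irs2, positive regulation of insulin secretion (29 of 81, 35.8%) held Irs2 and negative regulation (19 of 59, 32.2%) held Irs1. Terms for PI3K itself held Pik3r1 alone among the members. The phosphatidylinositol 3-kinase complex had 12 of 28 genes (42.9%), phosphatidylinositol 3-kinase regulator activity 10 of 20 (50.0%), and regulation of phosphatidylinositol 3-kinase activity 18 of 55 (32.7%). The narrower class I complex had 1 of 5 (20.0%) and class IA 1 of 2 (50.0%). Phosphatidylinositol 3-kinase regulatory subunit binding had 4 of 14 (28.6%).

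In the 28 of these 33 terms with 10 or more background genes, the median share was 35.4%, beside 30.3% over all terms with 10 to 500 background genes. The 28 were taken because they hold a listed gene, which raises their share, and they overlap widely, so no test was made. Lowest of the 28 was insulin-like growth factor binding (14.8%).

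**Figure D5:**
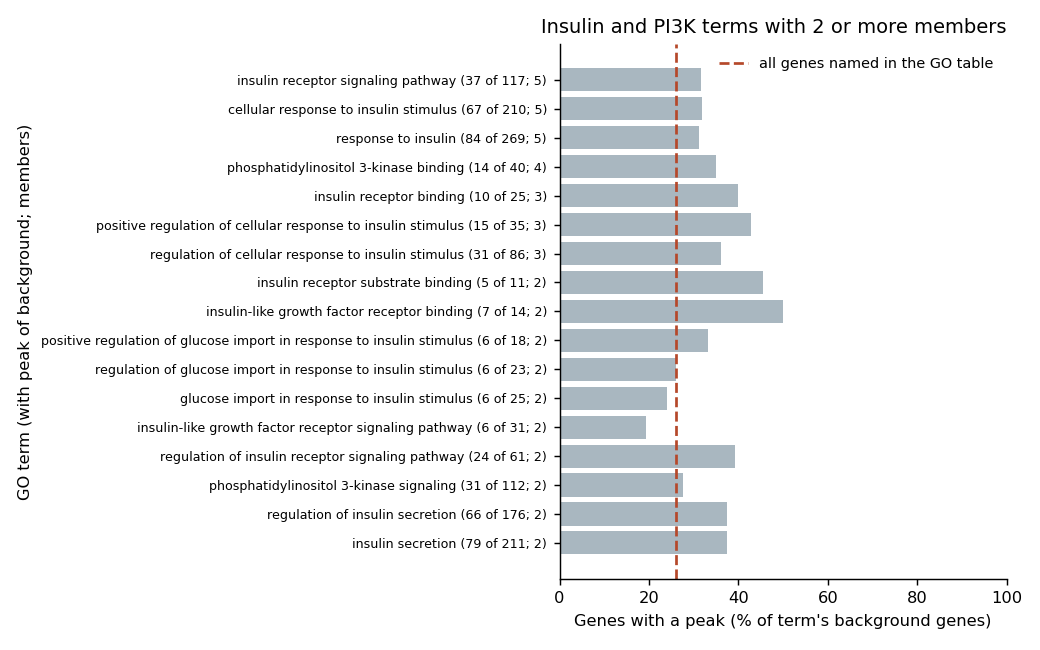
Bars give the share of a GO term's background genes that had a peak (x axis, %) for the insulin and PI3K terms with 10 or more background genes and 2 or more members (y axis, with genes, background and members in brackets). The dashed line is the 26.0% of background genes named anywhere in the GO table. Of the 17 bars, 15 reach past it. Glucose import in response to insulin stimulus (24.0%) and insulin-like growth factor receptor signaling pathway (19.4%) stop short. The terms were taken because they hold listed members, which raises their share. The median over all terms with 10 to 500 background genes was 30.3%, and the deposited total of genes with a peak would put the line at 48.3%.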

How the data were processed

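Deposited comparisons of 4 libraries from MIN6 cells (input and m6A immunoprecipitation, 1 of each per arm) were used, with no value per library. Of tools, BWA (0.7.12) and HOMER (4.9.1) are named in the submitters' processing notes, with mm10 as the build. The caller of differential peaks and its thresholds are not given in the sources used here. The authors deposited KEGG p-values that come, per the file headers, from a hypergeometric or Fisher exact test with Benjamini and Hochberg's correction, and GO p-values whose test is not stated.

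Gene IDs were matched to symbols through a table of Ensembl IDs (9217 of 9225 matched) and to spans, classes and Entrez IDs through RefSeq genes of GRCm38.p6. In the GO table, 63 overflow lines were joined to their terms. In 53 terms the joined list held fewer IDs than stated, by 2 at most. An Entrez gene counted as present under its own ID where an input ID carried its symbol. Counts and shares were described and no test was made.

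The members and lists were chosen with earlier results of these data known. Named were all 10 members, of each list up to 4 listed genes with the most lines and up to 3 absent genes in alphabetical order, both pathways of the members, the 10 further pathways with the most members (and 1 more that tied with them), and the GO terms with the most members or with insulin, PI3K or protein kinase B in their name (the latter only in part). Some genes that this rule names are not reported here. Other genes of the members' families (Insrr, Irs4, Pik3r2, Pik3r5) were added after values were seen. Counting was tested on simulated data. Scripts ran in Python 3.11.15. Figures were drawn with Matplotlib 3.10.9, and medians came from NumPy 2.4.6.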

Additional observations from a re-analysis of the deposited data

How the results depend on the processing

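No paired analysis was possible because each arm had 1 library of each kind and no result comes from a test, and leaving out a library was not possible for the same reason. Matching by the deposited symbol gave the same counts of listed members (6) and lines (13). With identical lines counted once, the members had 6 lines, 1 for each listed gene, so the place of Irs2 rests on repeated lines. The wider lists were 17.5 percentage points above the background, 16.6 with the genes named in the GO table as background, 18.1 without the FOXO targets, and 5.85 when only genes on 2 or more lines were counted. Of 1138 GO terms with a member, 623 had 10 to 500 background genes. The input of both KEGG pathways stayed within 1.5 times by distinct Entrez genes (62 and 120) and by genes under their own ID (57 and 106), the latter count being added after the data were seen.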
